A study of Drosophila melanogaster with 3 samples.

Results

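The chemoreceptor genes of Drosophila melanogaster encode the membrane receptors with which the fly smells and tastes. The family was chosen with earlier results of these data known. Members were the protein-coding genes whose symbol is Or, Gr or Ir followed by a number and a letter, together with Orco. This rule used no measured value. This gave 180 of 13968 protein-coding genes on the chromosome arms: 60 odorant receptor (Or) genes including Orco, 60 gustatory receptor (Gr) genes and 60 ionotropic receptor (Ir) genes. The series mapped, by chromatin immunoprecipitation and sequencing (ChIP-seq), where the protein of gene CG10209 sits on the genome of whole embryos of both sexes aged 0 to 24 h. All samples came from 1 transgenic line that carries CG10209 fused at its C-terminal end to green fluorescent protein (GFP), and chromatin was precipitated with an antibody against GFP. There was 1 group of 3 biological replicates and no second condition, and no untagged line was analysed here, so chemoreceptor genes were set against all protein-coding genes of the same lists.

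An odorant receptor forms an ion channel together with the co-receptor Orco, gustatory receptors detect sugars, bitter compounds, some pheromones and carbon dioxide, and ionotropic receptors descend from ionotropic glutamate receptors and work with broadly used co-receptors. Each receptor is typically made in a small set of sensory neurons, and most receptors are known from the sense organs of the larva or the adult. Many chemoreceptor genes stand in tandem clusters left by gene duplication. In chromatin from a whole embryo, a site occupied in few cells and a site occupied weakly in many cells cannot be told apart.

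The authors deposited 1 list of regions for each replicate and 1 for the pooled replicates, each of 30000 regions with background included, and 1 list of 6307 peaks that passed IDR, the irreproducible discovery rate, a measure of how well region ranks repeat across replicates. Each region carries the authors' signal value, which ranged from 52.7 to 15200 in the pooled list (median 91.3) and from 195 to 15200 among IDR peaks (median 341). Signal values were ranked only within a list. At a −log10 q of 2 or more, a q of 0.01, replicate 1 held 4296 regions, replicate 2 held 9183 and replicate 3 held 9015. The lists give no read counts, so the read depth of each replicate is unknown, and all intervals given are exact binomial 95% intervals that cover counting error only. A region was assigned to a promoter when its summit lay within 500 bp of any annotated transcription start of the gene, and to a gene body when its summit lay inside the gene.

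The sequences under some of the sites in the following account are printed first, from the RefSeq Release 6 (dm6) genome, 5′ to 3′ on the strand of the receptor gene. They are windows at the IDR peaks nearest to the starts of Or88a (chr3R:14108646-14108945, plus strand), Gr32a (chr2L:11113212-11113511, plus strand) and Orco (chr3R:5413072-5413371, minus strand), and at the pooled promoter regions of Gr63a (chr3L:3896685-3896899, minus strand), Ir67c (chr3L:10434250-10434549, minus strand) and Ir76b (chr3L:20111535-20111726, minus strand). The Or88a window extends past both ends of its peak. Each holds the summit and up to 150 bases on either side, without annotated untranslated bases. Capitals mark the 21 bases centred on the summit and any match, on either strand, to TATCGATA, CACTGAGA, CACTGTGC or TATAAA.
Or88a IDR peak: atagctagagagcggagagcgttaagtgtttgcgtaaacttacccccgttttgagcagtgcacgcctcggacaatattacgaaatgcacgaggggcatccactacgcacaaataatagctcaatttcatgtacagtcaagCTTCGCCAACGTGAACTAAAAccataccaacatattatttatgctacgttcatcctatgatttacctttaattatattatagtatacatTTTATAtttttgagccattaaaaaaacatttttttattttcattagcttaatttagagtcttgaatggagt
Gr32a IDR peak: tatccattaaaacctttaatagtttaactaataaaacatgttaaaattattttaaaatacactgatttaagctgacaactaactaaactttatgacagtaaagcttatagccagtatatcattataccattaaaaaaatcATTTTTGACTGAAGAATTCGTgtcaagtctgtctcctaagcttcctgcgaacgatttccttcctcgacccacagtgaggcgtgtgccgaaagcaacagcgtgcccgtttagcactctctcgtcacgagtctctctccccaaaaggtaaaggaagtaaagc
Orco IDR peak: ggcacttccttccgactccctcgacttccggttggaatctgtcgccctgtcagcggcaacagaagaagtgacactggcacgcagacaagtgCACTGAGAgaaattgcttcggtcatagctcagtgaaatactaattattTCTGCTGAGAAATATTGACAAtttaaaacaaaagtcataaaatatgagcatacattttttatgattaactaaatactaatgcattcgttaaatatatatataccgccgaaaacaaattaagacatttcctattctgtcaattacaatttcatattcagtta
Gr63a pooled region: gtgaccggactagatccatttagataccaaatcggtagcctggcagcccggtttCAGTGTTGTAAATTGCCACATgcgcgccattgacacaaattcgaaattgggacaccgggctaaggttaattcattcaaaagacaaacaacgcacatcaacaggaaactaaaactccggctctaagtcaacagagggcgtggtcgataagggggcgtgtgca
Ir67c pooled region: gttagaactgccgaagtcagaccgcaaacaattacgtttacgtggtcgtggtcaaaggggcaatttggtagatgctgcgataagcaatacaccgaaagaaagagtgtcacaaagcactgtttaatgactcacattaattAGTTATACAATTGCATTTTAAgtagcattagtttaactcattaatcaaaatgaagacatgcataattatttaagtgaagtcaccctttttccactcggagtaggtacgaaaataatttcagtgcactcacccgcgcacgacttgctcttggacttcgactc
Ir76b pooled region: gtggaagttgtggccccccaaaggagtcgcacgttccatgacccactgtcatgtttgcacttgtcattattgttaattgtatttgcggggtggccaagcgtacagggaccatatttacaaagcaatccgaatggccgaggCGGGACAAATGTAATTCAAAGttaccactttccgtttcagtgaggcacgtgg
Of these 6 sequences, that of Or88a held TATAAA on the opposite strand, 79 to 84 bases downstream of its summit, and that of Orco held CACTGAGA 51 to 58 bases upstream of its summit. The other sequences held none of the 4 words, which says only that these letters are not in these windows.

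Chemoreceptor promoters carried few CG10209 peaks. An IDR peak lay at the promoter of 1 of 180 chemoreceptor genes, 0.556% with an interval of 0.0141 to 3.06%, against 3004 of 13968 protein-coding genes (21.5%). That gene was Ir60e, an ionotropic receptor gene on 2R. No chemoreceptor gene body held an IDR summit, 0 of 180 with an interval of 0 to 2.03%, against 1964 protein-coding genes (14.1%). In the pooled list with its background regions, 12 chemoreceptor promoters held a region (6.67%, 3.49 to 11.4%), against 6056 protein-coding genes (43.4%). Of these 12 promoters, 3 reached a −log10 q of 2, those of Ir60e, Gr63a and Or88a, against 3439 protein-coding genes (24.6%), and 5 were among the 15000 regions of higher signal, against 4719 protein-coding genes (33.8%). Gene bodies held a pooled region in 18 chemoreceptor genes (10%, 6.04 to 15.3%), against 4714 protein-coding genes (33.7%), and 0 of the 18 reached a −log10 q of 2, against 2285 protein-coding genes (16.4%).

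The replicate lists differed in how often they reached chemoreceptor promoters. Replicate 1 held a promoter region at 29 chemoreceptor genes (16.1%), against 4511 protein-coding genes (32.3%). Replicate 2 held one at 13 (7.22%), against 7241 protein-coding genes (51.8%). Replicate 3 held one at 6 (3.33%), against 6437 protein-coding genes (46.1%). Replicate 1 thus held the most chemoreceptor promoters and the fewest protein-coding promoters of the 3 lists. Of its 29 chemoreceptor regions 0 reached a −log10 q of 2, against 2083 protein-coding genes (14.9%), and the highest of them ranked 7748 of 30000. Replicate 2 had 4 chemoreceptor promoters at that level, those of Ir60b, Ir60e, Gr63a and Or88a, against 4225 protein-coding genes (30.2%). Replicate 3 had 2, those of Ir60e and Gr63a, against 3732 protein-coding genes (26.7%).

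How many replicates listed a chemoreceptor promoter also varied. No replicate held a promoter region at 143 of the 180 genes (79.4%), against 5095 protein-coding genes (36.5%). Exactly 1 replicate did so at 29 (16.1%), 2 replicates at 5 (2.78%) and all 3 at 3 (1.67%), against 2759 (19.8%), 2912 (20.8%) and 3202 (22.9%) protein-coding genes. The 3 genes with a promoter region in every replicate were Gr63a, Or88a and Ir76b. Of the 29 chemoreceptor promoters listed in replicate 1, 22 were in no other replicate (12.2% of the 180), against 803 protein-coding genes (5.75%). Of the 13 in replicate 2, 6 were in that list alone (3.33%), against 1436 protein-coding genes (10.3%), and of the 6 in replicate 3, 1 was (0.556%), against 520 (3.72%). In replicate 1, 44 chemoreceptor gene bodies held a region, against 4553 protein-coding genes (32.6%). Replicates 2 and 3 each held 13, against 5844 (41.8%) and 4927 (35.3%) protein-coding genes, and all 3 replicates held a body region in 2 chemoreceptor genes, Ir68a and Or85f, against 2718 protein-coding genes (19.5%). In 102 chemoreceptor genes (56.7%) neither promoter nor gene body held a region of the pooled list or of any replicate list, against 3677 protein-coding genes (26.3%).

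**Figure D1:**
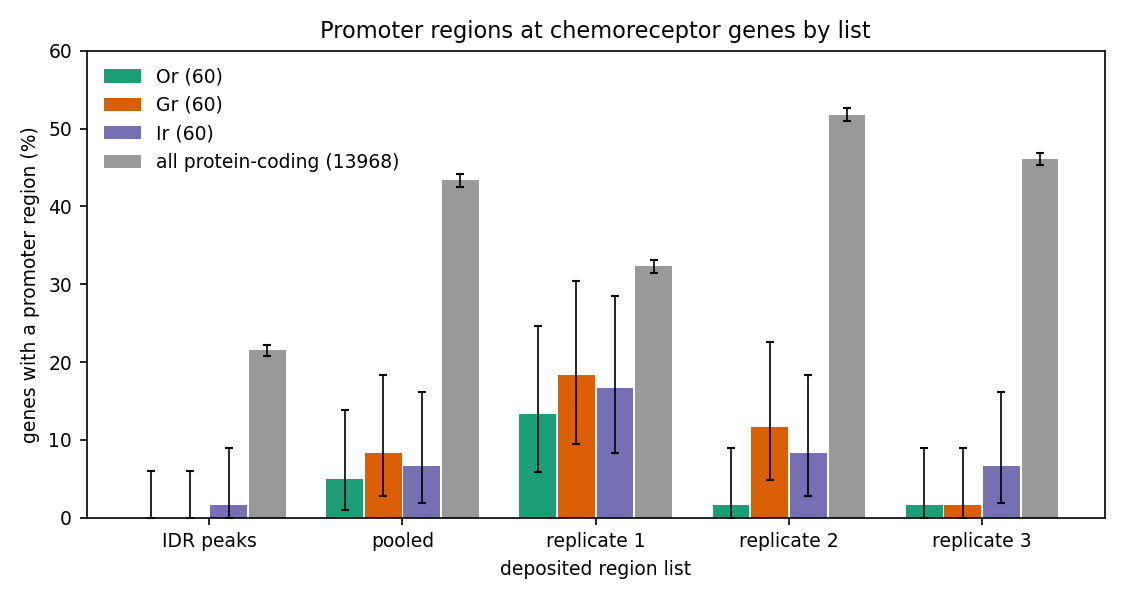
Share of genes, in percent, with a region summit within 500 bp of a start in each of the 5 deposited lists, for 60 Or, 60 Gr and 60 Ir genes and for 13968 protein-coding genes; bars start at 0 and error bars are exact binomial 95% intervals. In every list the bar of each receptor family stands below that of all protein-coding genes, and the receptor bars are highest in replicate 1.

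Ir60e gave the highest promoter signal of the 180 genes. Its pooled region, which is also its IDR peak, lay at chr2R:24531331-24531774 (dm6) with a signal of 259, rank 4500 in the pooled list and a −log10 q of 4.06. In the replicates it had 86.2 in replicate 2 (rank 4330) and 102 in replicate 3 (rank 4503), and no promoter region in replicate 1. Its summit lay 281 bp upstream of the start of Ir60e but 41 bp from the start of another gene, CG13585. The promoter of Ir60b, close by on the same arm, had a signal of 36.7 in replicate 1 and 85.4 in replicate 2 (rank 4380, −log10 q 3.98), and no region in replicate 3 or in the pooled list. Both Ir60b summits stood nearer to the start of Letm1, which encodes a mitochondrial inner membrane protein, at 60 and 124 bp.

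Gr63a, which with Gr21a makes the carbon dioxide receptor, was the second highest. Its pooled promoter region at chr3L:3896613-3897056 had a signal of 190 (rank 6499, −log10 q 2.88), just under the lowest IDR peak at 195. The replicate signals were 35.3 in replicate 1, 78.9 in replicate 2 and 76.9 in replicate 3, with ranks of 13516, 4946 and 6425, so replicate 1 ranked it lowest. The summit was 232 bp upstream of Gr63a and 65 bp from the start of Lamtor4, which encodes a subunit of a lysosomal signalling complex. An IDR peak with a signal of 800 (rank 839) lay 2552 bp upstream of Gr63a, 1 bp from the start of Ccz1, whose product takes part in endosome maturation. Gr21a itself had a pooled promoter signal of 58.9 at rank 26118 and a region in replicate 2 alone (22.5, rank 27732).

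Or88a, a receptor for fly-produced odours in the adult antenna, had a pooled promoter region at chr3R:14108773-14109216 with a signal of 169 (rank 7469, −log10 q 2.3) and its summit 450 bp upstream of the start. The replicate signals were 39.1, 59 and 43.1 for replicates 1, 2 and 3, at ranks 11192, 7539 and 12699. This region overlapped an IDR peak at chr3R:14108683-14108912. The summit of that peak lay 649 bp upstream, outside the promoter window and 475 bp from the start of CG12402. That IDR peak had a pooled signal of 581 (rank 1429) and replicate signals of 180, 161 and 241, at ranks 1586, 1582 and 1284. The IDR peak upstream of Or88a was therefore high in all 3 replicates, and the region with its summit inside the promoter window was lower in each. Whether these overlapping regions mark the same site was not tested.

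The remaining pooled promoter regions were weak. Ir76b, a co-receptor in smell and taste neurons, had a pooled signal of 79.5 (rank 17828) with its summit 42 bp upstream of the start, and 36.3, 22.2 and 30.2 in replicates 1, 2 and 3. Ir67c had 116 (rank 11349), with 49.8 in replicate 1, 50.3 in replicate 3 and no region in replicate 2. Gr77a had 101 (rank 13255), with 49.7 in replicate 1, 32.2 in replicate 2 and no region in replicate 3. None of these 3 reached a −log10 q of 2. Ir68a, a receptor of humidity-sensing neurons, had 77.8, Gr33a, needed for sensing many aversive compounds, had 60.9, and the sugar receptor gene Gr64a had 54.2. Or65a had 54 and Or69a had 52.9, close to the lowest pooled region at 52.7, and Gr33a and Or69a had no promoter region in any replicate. Over the 12 genes the median pooled promoter signal was 78.7 and the median rank 18093, against 193 and 6369 over the 6056 protein-coding genes with a pooled promoter region.

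**Figure D2:**
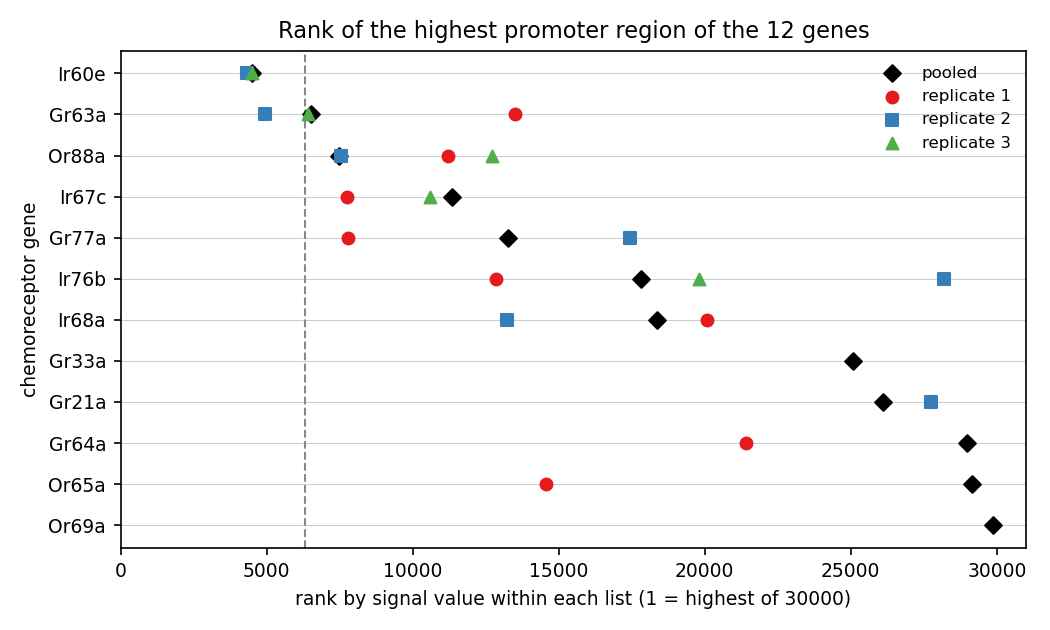
Rank by signal value, within the pooled list and within each replicate list of 30000 regions, of the highest promoter region of the 12 chemoreceptor genes with a pooled promoter region (1 is the highest; a missing symbol means no promoter region in that list). The dashed line stands at rank 6307, the number of IDR peaks; Ir60e lies left of it in the pooled list, at rank 4500, and the other 11 genes lie right of it there.

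The co-receptors, which many receptors of a family need, differed among themselves. Ir76b, given above, had a promoter region in all 3 replicates and a pooled rank of 17828. Orco had no promoter region in any list, and inside the gene a pooled signal of 63 (rank 24034), 29.9 in replicate 1 and 23.1 in replicate 3. Ir8a, the co-receptor for acid sensing, had no region in its promoter or body in any list. Ir25a, the most widely used ionotropic co-receptor, had a promoter region only in replicate 3 (21.7, rank 29575), yet an IDR peak of rank 52 (signal 2690) stood 2568 bp upstream of its start, 131 bp from that of the gene tank. Ir93a, used in temperature and humidity sensing, had only a body region in replicate 2 (29.9).

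The receptors with well known ligands ranged from Gr63a, with a promoter region in all 3 replicates, to genes without any region, which made up 56.7% of all chemoreceptor genes and 26.3% of protein-coding genes. No list held a promoter or body region for the fructose receptor gene Gr43a, the sugar co-receptor gene Gr64f, the bitter receptor gene Gr66a, the pheromone receptor genes Or67d and Or47b, or Ir84a, whose product senses aromatic acids and aldehydes of food. The sugar receptor gene Gr5a had a promoter region in replicate 2 alone (25.8, rank 23420). Ir21a, needed for sensing cooling, had body regions of 25 in replicate 2 and 30.8 in replicate 3 and no promoter region.

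Gene-body regions outside the promoters ranked no higher than 12834 in the pooled list, although some ranked higher in replicate 1. Ir68a had the highest pooled signal, 104 (rank 12834), with 44.1 (rank 9180), 23.4 (rank 26472) and 36.2 (rank 15750) in replicates 1, 2 and 3. Or85f, which takes part in detecting the odour of parasitoid wasps, had 94.4 pooled (rank 14401) and 35.6, 32.3 and 23.5 in replicates 1, 2 and 3. The next were Ir92a, an ammonia receptor gene, with 76.8, Ir56b with 75.8 and Gr39b with 70.8, and each of these 3 had a region in replicate 1 and none in replicates 2 and 3. Their ranks in replicate 1 were 12069 for Ir92a, 7147 for Ir56b and 8276 for Gr39b. Or10a and Gr10a share 1 annotated interval and so share 1 body region (54).

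Although promoters carried 1 IDR peak, 5 chemoreceptor genes had an IDR summit within 1000 bp of the 5′ end of the gene (2.78%), against 3171 protein-coding genes (22.7%). Beside Ir60e and Or88a these were Gr32a, Orco and Gr64a. Gr32a, a receptor for bitter compounds and a male pheromone, had a peak 652 bp upstream at chr2L:11113140-11113583 with a signal of 485 (rank 1907) and 183, 127 and 183 in replicates 1, 2 and 3. Its summit was 301 bp from the start of Idua, which encodes a lysosomal enzyme. Orco had a peak 816 bp upstream at chr3R:5413000-5413443 with a signal of 378 (rank 2733) and 124, 105 and 146 in replicates 1, 2 and 3. The Orco peak lay in no annotated gene, its nearest annotated start was that of Orco, and all 3 replicates ranked it between 2620 and 3170. Gr64a, the first gene of a cluster of sugar receptor genes, had a peak 875 bp upstream at chr3L:4025672-4026115 with a signal of 306 (rank 3642) and 65.1, 110 and 122 in replicates 1, 2 and 3, inside CG11594 and 117 bp from a start of that gene.

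Further sites lay next to receptor genes without another start nearby. An IDR peak with a signal of 787 (rank 859) had its summit 1348 bp downstream of the start of Gr89a, past the end of that gene, and 268, 261 and 259 in replicates 1, 2 and 3. A peak 2458 bp upstream of Gr93d had a signal of 368 (rank 2847) and 113, 112 and 153. In both cases the nearest annotated start was that of the receptor gene, at these distances. By contrast, the peak 2118 bp upstream of Gr66a (signal 361) stood 157 bp from the start of BI-1, a gene for an inhibitor of cell death in the endoplasmic reticulum, and the peak 1488 bp upstream of Gr5a (signal 207) lay inside Tre1, a receptor gene known from germ cell migration.

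Over all members, the median distance between the 5′ end of a gene and its nearest IDR summit was 15536 bp, against 6126 bp for protein-coding genes. Within 5000 bp there was an IDR summit for 37 chemoreceptor genes (20.6%), against 45.2% of protein-coding genes. For 73 (40.6%) the nearest was more than 20000 bp away, against 20.4% of protein-coding genes. The farthest were Or42a at 224663 bp, Or42b at 219118 bp and the cluster of Gr36a, Gr36b and Gr36c at 202432, 200278 and 198712 bp. Odorant receptor genes had a median of 27201 bp, gustatory receptor genes 10890 bp and ionotropic receptor genes 9988 bp, and 36, 20 and 17 of the 60 genes of each family lay over 20000 bp from a summit. These family values are a description without a test, since members of a cluster share their surroundings.

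**Figure D3:**
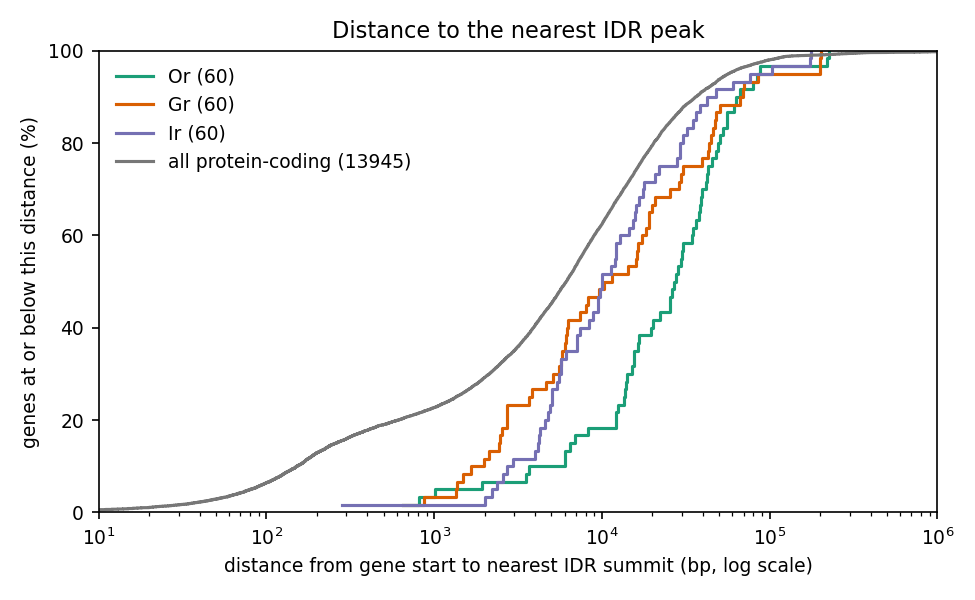
Cumulative share of genes, in percent, by distance in bp (log axis) from the start of the gene to the nearest IDR summit, for 60 Or, 60 Gr and 60 Ir genes and for the 13945 protein-coding genes on arms that hold a peak. The curve of protein-coding genes reaches 22.7% at 1000 bp, where 2.78% of chemoreceptor genes have a summit, and the Or curve lies right of those of Gr and Ir over most of the range, with a median of 27201 bp.

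Around the starts, pooled summits of chemoreceptor genes showed no rise. In the 250 bp upstream of the start there were 11.1 summits per 1000 chemoreceptor genes (2 summits), against 238 per 1000 protein-coding genes, and 0 IDR summits per 1000, against 128. From 750 to 1000 bp upstream the values were 38.9 per 1000 chemoreceptor genes and 56.5 per 1000 protein-coding genes for pooled regions. The highest bin of chemoreceptor genes was 2500 to 2750 bp upstream, with 18 pooled and 7 IDR summits (100 and 38.9 per 1000), against 59.7 and 14.7 per 1000 protein-coding genes. A single peak can be counted for several genes there, as the peak inside CG11594 was for Gr64b and Gr64c, which share their start. Per length, member promoter windows held 67.6 pooled summits per Mb and member bodies 38.1, against 464 and 216 per Mb in protein-coding genes and 224 per Mb over the arms with regions. Both densities at chemoreceptor genes were thus below that of the arms as a whole. In replicate 1 the same territories held 156 and 119 per Mb, against 320 and 208 in protein-coding genes. In replicate 2 they held 78 and 31.8, against 591 and 232, and in replicate 3 41.6 and 31.8, against 496 and 218.

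**Figure D4:**
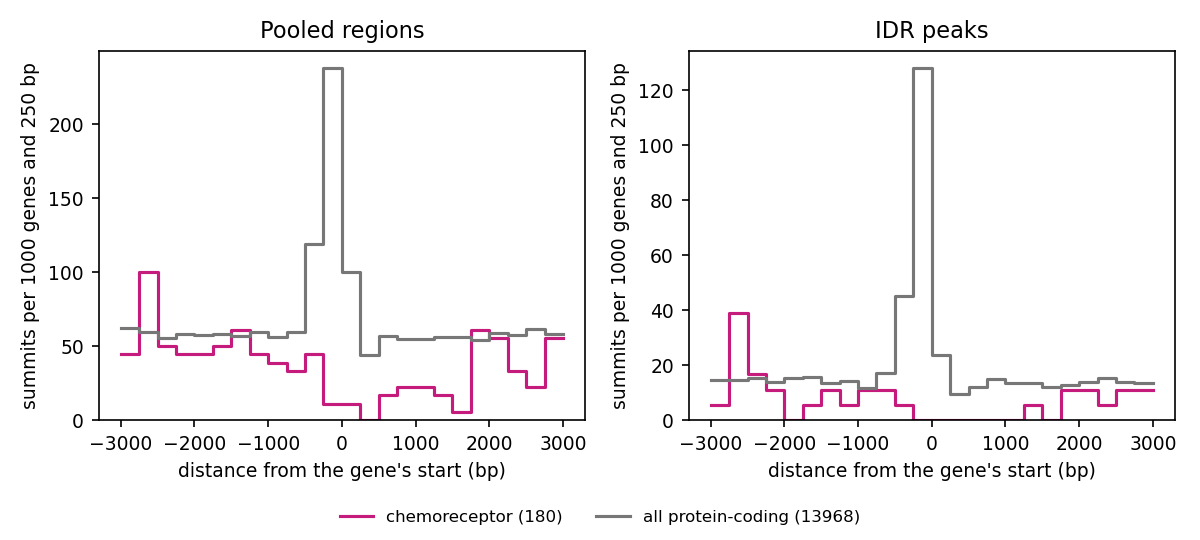
Number of region summits per 1000 genes in bins of 250 bp from 3000 bp upstream (negative) to 3000 bp downstream of the start of the gene, for 180 chemoreceptor and 13968 protein-coding genes, in the pooled list (left) and the IDR list (right). Protein-coding genes peak just upstream of the start, at 238 and 128 summits per 1000 genes, where chemoreceptor genes have 11.1 and 0.

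By family, pooled promoter regions occurred at 3 of 60 Or (5%), 5 of 60 Gr (8.33%) and 4 of 60 Ir genes (6.67%), against 43.4% of protein-coding genes, and the intervals of the 3 family shares overlap. Odorant receptor genes had 8 promoter regions in replicate 1 and 1 each in replicates 2 and 3, gustatory receptor genes had 11, 7 and 1, and ionotropic receptor genes had 10, 5 and 4, where 32.3, 51.8 and 46.1% of protein-coding genes had one. By arm, 3L held 8 of the 12 genes with a pooled promoter region, among its 35 members (22.9%), against 46% of the protein-coding genes of that arm. On 2L it was 2 of 31 (6.45%), against 40.3%, and on 2R 1 of 46 (2.17%), against 43.2%. On 3R it was 1 of 43 (2.33%) and on X 0 of 25, against 43.9% of protein-coding genes on each. Members with another member within 5000 bp had a pooled promoter region in 3 of 79 cases and the other members in 9 of 101, again beside 43.4% of protein-coding genes. These 79 genes formed 28 clusters. Counted with flanks of 500 bp, no cluster held an IDR summit and 16 held no pooled summit. Over all clusters with these flanks there were 14 pooled summits in 196995 bp, 71.1 per Mb. The arms with regions held 224 pooled and 47.1 IDR summits per Mb, and member promoter windows 67.6 pooled summits per Mb. Of the 4 clusters with 4 or more genes, 1 held no pooled summit, that of Ir52a to Ir52d. That of Gr64a to Gr64f with 6 genes held 1, that of Ir7c to Ir7g 1 and that of Gr22e to Gr22a 2. Or19a and Or19b are identical at 99.5% of 1370 bases, and reads from such a pair can be lost or shared where reads must map to 1 place.

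Chemoreceptor genes also differed from other genes in layout. Their median length was 1691 bp, against 2164 bp, and 92.8% had a single annotated start, against 73.5% of protein-coding genes. Another coding gene started within 500 bp of 22 members (12.2%), against 30.8% of protein-coding genes. Among genes with 1 start and no such neighbour, a comparison added after seeing the data, 0 of 149 chemoreceptor genes had a promoter IDR peak and 8 (5.37%) a pooled promoter region, against 678 (9.2%) and 2118 (28.7%) of 7369 protein-coding genes. The 1 promoter IDR peak, that of Ir60e, fell among the 22 with a neighbour. The part of gene layout in the difference was not tested.

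Base composition and short words gave a further description of the promoters, from 250 bases before to 50 after the start. The median A and T content was 60.7% in chemoreceptor promoters and 62% in all coding promoters. The letters TATCGATA, the core of the DNA replication-related element, were found on either strand in 1 chemoreceptor promoter, that of Gr68a (0.556%), against 9.36% of all coding promoters. CACTGAGA was found in 2 (1.11%, Ir67c and Gr8a), against 1.05%, and CACTGTGC in 3 (1.67%, Gr64b, Gr64c and Ir76a), against 1.49%. TATAAA was found in 98 (54.4%), against 45.8%. CACTGAGA and CACTGTGC begin alike, and matches to different words can share a few bases. Of the 300 bases at each summit, CACTGAGA was in 5.41% of IDR peaks and 3.26% of pooled regions, and TATCGATA in 3.65% and 1.96%. CACTGTGC was in 5.66% and 3.24%, and TATAAA in 46.2% and 37.3%. These words had been reported earlier from these same data, so their shares at summits are no independent evidence.

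Other gene families of smell and taste were set beside the receptors. Odorant-binding proteins, which are secreted around sensory neurons, had a promoter IDR peak at 2 of 51 genes, Obp99b with a signal of 518 (rank 1725) and Obp83g with 245, and a pooled promoter region at 5. The ppk channel genes, which include receptors for pheromones, salt and touch, had an IDR peak at 2 of 29, ppk11 and ppk16, which share 1 peak (355), and a pooled region at 9 (31%). None of 13 ionotropic glutamate receptor genes, the relatives of the Ir genes, had a promoter region in the IDR or the pooled list. Of 23 membrane and carrier genes 0 had an IDR peak and 1 a pooled region. Of 13 regulators of receptor choice and sensory neuron fate, 1 had an IDR peak, the stress response factor gene Xbp1 with a signal of 767 (rank 911), and 4 had a pooled region. These counts read against 21.5% and 43.4% of protein-coding genes. Gene bodies gave another order. The regulators had an IDR summit in the body at 5 of 13 (38.5%, 13.9 to 68.4%), against 14.1% of protein-coding genes. They had a pooled one at 8 (61.5%, 31.6 to 86.1%), against 33.7%. Both intervals reach below the share of protein-coding genes. Glutamate receptor genes had 1 of 13 (7.69%) and 6 (46.2%), ppk channel genes 0 of 29 and 10 (34.5%), membrane and carrier genes 1 of 23 (4.35%) and 5 (21.7%), and odorant-binding protein genes 0 of 51 and 3 (5.88%). Gene length was not taken into account in these counts.

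Cuticle protein genes, another large family of short genes in tandem clusters, were set beside the receptors as a further comparison. A promoter IDR peak lay at 1 of 180 chemoreceptor genes (0.556%) and 2 of 122 cuticle protein genes (1.64%), against 21.5% of protein-coding genes. A body IDR summit lay in 0 of 180 and 1 of 122 (0.82%), against 14.1%. Few IDR peaks were thus common to both families. A pooled promoter region was less frequent at chemoreceptor genes, 12 of 180 (6.67%), than at cuticle protein genes, 19 of 122 (15.6%), against 43.4% of protein-coding genes. In replicates 1, 2 and 3 the promoter shares were 16.1, 7.22 and 3.33% of chemoreceptor genes and 25.4, 13.1 and 15.6% of cuticle protein genes. Among protein-coding genes they were 32.3, 51.8 and 46.1%. The median pooled promoter signal was 78.7 in chemoreceptor and 77 in cuticle protein genes, against 193 in protein-coding genes. The median distance to an IDR summit was 15536 bp for chemoreceptor and 15200 bp for cuticle protein genes. Neither promoter nor body held any region in 56.7% of chemoreceptor and 54.1% of cuticle protein genes. Ribosomal protein genes stood at the other end, with a promoter IDR peak at 72 of 93, a median pooled promoter signal of 559 and a median distance of 61 bp, in the same lists.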

How the data were processed

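ChIP-seq with an antibody against GFP was measured in 3 biological replicates, per the labels. Regions were called in each replicate and in the pooled replicates against 1 common control alignment, per the deposited text files. Aligner, caller and IDR threshold: not given in the sources used here. For each region, the authors deposited a signal value and a −log10 q, used as deposited. Only the dm6 lists were used, and dm3 lists were not used here. Coordinates are 1-based. Genes came from the Ensembl 115 annotation without transposable elements (18277 genes, 13968 protein coding), and sequences from the RefSeq Release 6 genome. Assignments were computed with Python 3.11.15, numpy 2.4.6, pandas 2.3.3, scipy 1.17.1 and matplotlib 3.10.9. The search was tested on simulated data: 200 of 200 planted regions were recovered, and 1000 genes gave 0 differences from a plain loop. No list test was run.

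Members and lists were chosen with earlier results of these data known. The genes named were those with an IDR peak, with the 10 highest pooled promoter signals, with the 5 highest pooled body signals outside promoters, or with promoter regions in all 3 replicates, plus 5 co-receptors, 10 receptors of well known ligands and up to 4 genes with IDR peaks per other list. Other genes in the text, such as Ir60b, those near IDR peaks or at the ends of a range, were picked after their values were seen. Alternatives were other windows, overlap by 1 bp, the nearest start alone, the 5′ end of the gene alone, stricter lists and omission of each replicate. For IDR peaks, leaving out a replicate kept those overlapped by a region of the other replicates that ranked within 6307, because IDR was not rerun. One restriction of genes was chosen after seeing the data.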

Additional observations from a re-analysis of the deposited data

How the results depend on the processing

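Of 52 alternatives, 27 left a value within 1.5 times the one reported and 25 did not, and counts at chemoreceptor genes are small, so single genes move them. Promoter IDR peaks, 1 as reported, came to 5 genes with a window of 1000 bp (25.1% of protein-coding genes) and 2 by overlap (23.1%). They came to 0 with 250 bp (16.8%), for the nearest start alone (16.2%) and among the 3153 peaks of higher signal (13.5%). They also came to 0 in the 149 genes with 1 start and no neighbour (9.2% of such protein-coding genes), a restriction chosen after seeing the data. Without 1 replicate the count was 0 to 1 (14.3 to 17.7%), and it was 0 without replicate 2 (15.2%) and without replicate 3 (14.3%). Body IDR peaks came to 1 by overlap, against 23.1% of protein-coding genes. Pooled promoter regions, 12 as reported, came to 26 with 1000 bp (50.9%), 19 by overlap (47.4%) and 5 with 250 bp (34.4%). They came to 5 among the 15000 regions of higher signal (33.8%) and 3 at a −log10 q of 2 (24.6%). Those 3 came to 6 with 1000 bp (28.7%) and 1 with 250 bp (19.3%). Pooled body regions, 18 as reported, came to 2 among those 15000 (23.1%) and 0 at a −log10 q of 2 (16.4%). Promoters in all replicates, 3 as reported, came to 8 with 1000 bp (28.6%) and 5 by overlap (25.8%). Without 1 replicate they came to 4 to 6 (24.3 to 40.1%), with 6 without replicate 3 (24.3%). Bodies in all replicates, 2 as reported, came to 4 by overlap (27.3%) and to 3 to 5 without 1 replicate (21.3 to 28.6%). The median distance of 15536 bp became 28843 bp with the 3153 higher peaks, a shorter list, and 19304 to 22558 bp without 1 replicate. The median pooled promoter signal stayed between 58.9 and 87. In each alternative that gives a count of genes, the share of chemoreceptor genes was below that of protein-coding genes; the distance alternatives were not computed for protein-coding genes. No paired analysis was possible because there is 1 group, so no 2 groups share replicate numbers. Read depth is unknown, so a gene without a region is only one not listed among 30000.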
